A study of Mus musculus with 4 samples.

Results

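The genes of the NOD-like receptor and inflammasome system described here were chosen by name: Naip1, Naip2, Naip5, Naip6, Nod1, Nod2, Nlrp3, Nlrx1, Pycard and Casp1. Spots carrying 1 of these gene symbols in the platform annotation were used, and the spots of a gene were averaged on each array. Of the 10 genes, 9 had at least 1 spot, 12 spots in all, out of 19088 genes measured in the series. No spot was listed for Naip1, which is not analysed here. The group was selected on measured values of these arrays, because Naip5 and Nod2 had been among the genes of smallest p on the negative side of the ratio. Their ratios are therefore given as a description.

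NOD-like receptors are cytosolic proteins that recognise bacterial products or cell damage. In the mouse, NAIP proteins bind flagellin or parts of bacterial secretion systems and then join NLRC4 into an inflammasome, a complex that activates caspase-1. NLRP3 forms an inflammasome through the adaptor ASC, the product of Pycard. NOD1 and NOD2 bind fragments of peptidoglycan and signal through the kinase RIPK2 to NF-kappaB, and NLRX1 is a member of the family located at mitochondria. These genes are best known from macrophages and epithelium, and NOD1 is also expressed in fibroblasts.

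The arrays were 2-colour Agilent mouse arrays on which RNA of mouse cybrid fibroblasts was compared in 4 pairs. The control line, LMEB3(mtB6), is labelled with the strain C57BL/6J and the mutant line, LMEB3(mtBALB), with BALB/cJ. A cybrid joins the mitochondria of a donor with the nucleus of a recipient line without mitochondrial DNA of its own. Both lines were at passage 3, in medium with 4.5 g/L glucose and 10% serum, with no other treatment named. The title of the series refers to independent clones, and the labels call the 4 cultures of each line biological replicates. Replicates 1 and 3 had mtB6 RNA in Cy5, and replicates 2 and 4 had it in Cy3. Each value below is the deposited log ratio of an array, taken as log2. The sources used here do not settle which line is in its numerator, so a value is said to lie on the ratio's positive or negative side and no line is called higher. A ratio holds no expression level, and in RNA of whole cultures fewer cells with a transcript and less transcript per cell cannot be told apart.

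A spot is called dim where its value was shared exactly by 3 or more spots of the array, which is how low whole-number signals appear. The cell type label was set against markers in this way. Of 16 fibroblast markers, 9 had a never dim spot, meaning dim on none of the arrays, among them the collagens Col1a1, Col1a2 and Col3a1 and the receptors Pdgfra and Pdgfrb. Of the other 7, the least dim spot was dim on 1 array for Vim and Postn, on 3 for Thy1, Dcn and Lum, and on 4 for Col5a2 and Fap. Of 15 measured leukocyte markers 3 did (Lyz2, Tyrobp and Cd3e), and of 10 epithelial and 8 endothelial markers 0 did. Over all genes the share was 51.2%, so that the fibroblast list lay close to it and the others below. Of the 9 measured sensors and partners, 7 had a never dim spot. The spots of Naip6 and Nlrp3 were dim on all 4 arrays. Each of 7 genes rested on a single spot, while Nlrx1 had 3 and Pycard 2.

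Naip5 and Nod2 lay on the negative side of the ratio on all 4 arrays, and the other 7 genes had means close to 0. Naip5, whose protein binds flagellin, had a mean of -0.75 ± 0.47 (SD, n = 4), a 1.68-fold difference. Nod2, the receptor for muramyl dipeptide, had -0.52 ± 0.22, a 1.43-fold difference. The means of the other genes lay between 0.01 and 0.14, each smaller than its own SD over the arrays. Over all 19088 genes limma called 0 at an adjusted p of 0.05, which is 0% and includes these 9, each with an adjusted p = 0.9997. At an unadjusted p under 0.05 there were 2 of 9, Naip5 and Nod2, beside 3.64% of all genes. The genes were chosen with these values known, so nothing is read from that count.

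**Figure D1:**
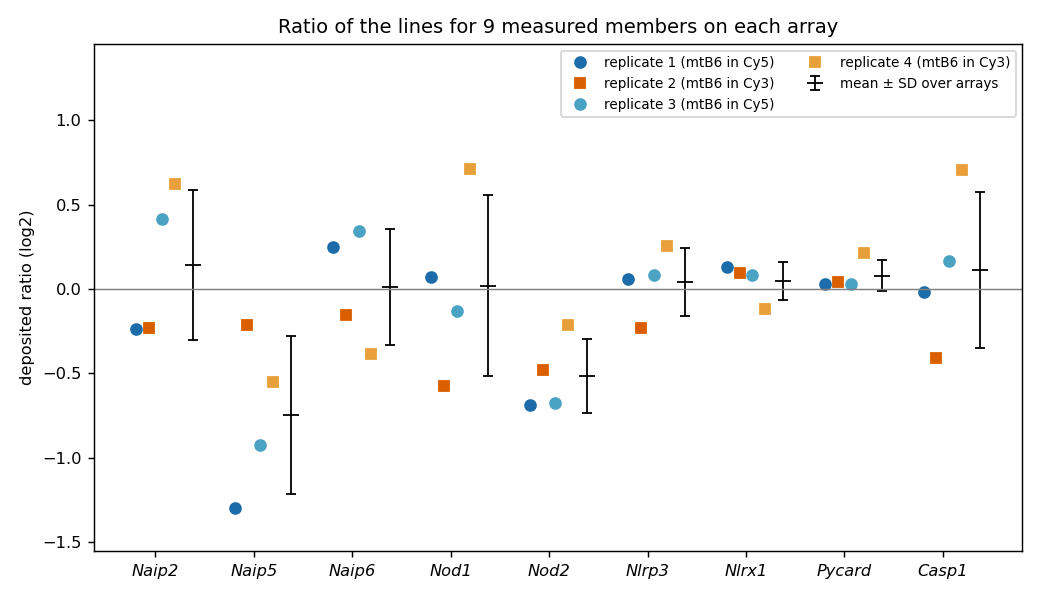
Deposited log2 ratio of each of 9 measured genes (horizontal axis) on each of 4 arrays. Circles are arrays with mtB6 RNA in Cy5 and squares arrays with it in Cy3, and the bar gives the mean ± SD over arrays. Naip5 and Nod2 lie below 0 on every array, while Naip2, Nod1 and Casp1 have their highest values on replicate 4.

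Among the NAIP genes, Naip5 had ratios of -1.30, -0.22, -0.92 and -0.55 on replicates 1 to 4. All were negative, and the span of 1.08 between the lowest and the highest was wider than the mean itself. Naip2, whose protein recognises the inner rod of secretion systems, had -0.24, -0.23, 0.41 and 0.62. Its values fell on both sides of 0, with a mean of 0.14 ± 0.44. Naip6, like Naip5 a flagellin receptor, had 0.25, -0.15, 0.34 and -0.38. Its sign alternated with the dye orientation, as it did in 21.3% of all genes, and its mean was 0.01 ± 0.34.

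The NAIP genes lie next to each other on chromosome 13 and are close copies, so a spot of 1 gene may also bind transcripts of another. Probe sequences were not used here. Naip5 and Naip2 gave different ratios on 3 of the 4 arrays. The difference, Naip5 minus Naip2, was -1.06, 0.02, -1.34 and -1.17 on replicates 1 to 4, with a mean of -0.89 ± 0.61. The spots thus differed by more than 1 log2 unit on 3 arrays and hardly at all on replicate 2. Naip5 was picked for its low ratio, so a gap to Naip2 follows from the choice. In the first listed promoter of each gene the same pair shared the longest run of identical bases among the NAIP genes. The 250 bases before the annotated starts of Naip5 (chr13:100247337-100247586, minus strand) and Naip2 (chr13:100202123-100202372, minus strand) are shown because they hold this run. They are from RefSeq, GRCm38.p6, 5′ to 3′, with the longest shared run in capitals.
Naip5: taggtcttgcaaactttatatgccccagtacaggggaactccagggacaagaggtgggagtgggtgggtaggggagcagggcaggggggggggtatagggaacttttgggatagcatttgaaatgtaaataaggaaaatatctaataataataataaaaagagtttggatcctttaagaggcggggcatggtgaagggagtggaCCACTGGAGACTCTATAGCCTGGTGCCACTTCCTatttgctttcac
Naip2: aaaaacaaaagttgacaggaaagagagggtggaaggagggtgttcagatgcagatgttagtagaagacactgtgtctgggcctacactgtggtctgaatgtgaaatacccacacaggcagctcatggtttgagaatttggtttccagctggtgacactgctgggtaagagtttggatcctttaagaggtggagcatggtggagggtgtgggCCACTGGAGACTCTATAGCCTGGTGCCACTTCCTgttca
The shared run has 34 bases. Naip1 shared 14 bases at most with Naip5 and 11 with Naip2, and Naip6 shared 7 and 8. These are reference sequences of C57BL/6J, and the nuclear genome of the LMEB3 cells was not examined.

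The peptidoglycan receptors are described in the same way. Naip5 and Nod2 were picked for their low ratios, so a gap to relatives near 0 follows from the choice and is not a finding. Nod2 had -0.69, -0.48, -0.68 and -0.22 on replicates 1 to 4, all negative and within a span of 0.47. Nod1 had 0.07, -0.58, -0.13 and 0.71, which spread over both sides of 0 with a mean of 0.02 ± 0.53. The difference, Nod2 minus Nod1, was -0.76, 0.10, -0.55 and -0.92, with a mean of -0.53 ± 0.45. On replicate 2 this difference was positive, as was that of Naip5 and Naip2.

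**Figure D2:**
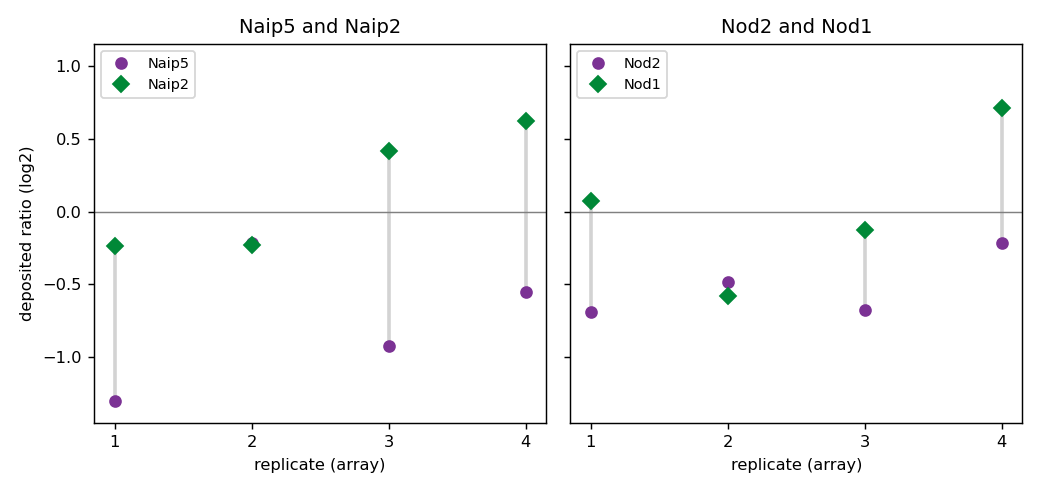
Deposited log2 ratio of Naip5 and Naip2 (left) and of Nod2 and Nod1 (right) on each array, with a grey line joining the genes of a pair. Naip5 and Nod2 are the lower gene on replicates 1, 3 and 4, and on replicate 2 the pairs differ by 0.02 and 0.10.

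The 250 bases before the annotated start of Nod2 are shown for comparison with the NAIP promoters, from RefSeq, GRCm38.p6, plus strand (chr8:88647097-88647346). Capitals mark the GC box, GGGCGG read on both strands, which does not overlap another motif searched.
Nod2: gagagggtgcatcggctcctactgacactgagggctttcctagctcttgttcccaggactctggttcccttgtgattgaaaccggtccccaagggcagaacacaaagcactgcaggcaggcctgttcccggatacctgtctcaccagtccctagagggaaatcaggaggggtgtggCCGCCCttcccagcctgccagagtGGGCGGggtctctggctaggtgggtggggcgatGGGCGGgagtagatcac
The Nod2 window held 3 GC boxes, the Nod1 and Pycard windows 1 each, and those of the other 7 genes 0, counted over 300 bases that include 50 after the start. Of 32851 annotated promoters, 35.7% held at least 1. Those include each distinct start of a gene, while for the genes described here only the first listed start was used. The letters of the TATA box, searched as TATAAA on both strands, were found 1 time each in the windows of Naip5 and Naip1. They were found 0 times in the other 8, and in 13.6% of all promoters. In Naip5 the match is TTTATA, the reading of the other strand, near the end of the printed bases farthest from the start. A match describes the letters and not the use of a site, and no match says only that the letters are not in the window.

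The inflammasome members showed no common side. Nlrp3, the sensor of membrane damage and crystals, had 0.06, -0.23, 0.08 and 0.25 on its dim spot, a mean of 0.04 ± 0.20. Pycard had 0.03, 0.04, 0.03 and 0.21, positive on each array as in 4.37% of genes. Its spots did not agree on this: the spot that was never dim had 0.04, -0.13, -0.13 and 0.24, and the one dim on 3 arrays had 0.02, 0.21, 0.19 and 0.18. Casp1, the protease that cleaves pro-interleukin-1 beta, had -0.02, -0.41, 0.17 and 0.71, a mean of 0.11 ± 0.46. Its values crossed 0 and were highest on replicate 4, as those of Nod1 and Naip2 were.

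Nlrx1, the receptor at mitochondria, had the smallest span but for Pycard. Its means over 3 spots were 0.13, 0.10, 0.08 and -0.12 on replicates 1 to 4, for a mean of 0.05 ± 0.11. The never dim spot had 0.47, -0.09, 0.17 and -0.08, which followed the dye orientation. The other spots had means of -0.04 and 0.07 over the arrays, so the small span came from averaging spots that differed.

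The ratios of the 9 genes had no common side, and the largest positive values, those of Nod1, Casp1 and Naip2, were on replicate 4. On replicate 2, 7 of 9 were below 0, against 4, 3 and 4 on replicates 1, 3 and 4. The share of all genes below 0 was not counted by array, and the array medians over all spots lay between -0.0033 and 0.0051. Naip5 and Nod2, chosen for low ratios, are in each of these counts, so nothing is read from them. The median ratio of the 9 genes was 0.03, -0.23, 0.08 and 0.21 on replicates 1 to 4. By their mean over all arrays 2 of 9 lay below 0, where 50.5% of all genes did. Without replicate 4 this became 6 of 9, with Nod1 at -0.21, Casp1 at -0.09, Nlrp3 at -0.03 and Naip2 at -0.02. Naip5 and Nod2 lay below 0 on each array, a pattern of 4.65% of all genes and 5.27% of genes with a never dim spot. Without each replicate in turn Naip5 had between -0.92 and -0.56 and Nod2 between -0.62 and -0.46. These means had to be negative, since each array was.

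Within each dye orientation Naip5 and Nod2 differed in size but not in side. Naip5 averaged -1.11 on replicates 1 and 3 and -0.38 on replicates 2 and 4. Nod2 averaged -0.68 and -0.35. For Naip6 the averages were 0.30 and -0.27, so that its ratio turned with the dye. In Naip2, Nod1, Nlrp3 and Casp1 the orientations differed by less than the SD over arrays. In Nlrx1 they had 0.11 and -0.01 and in Pycard 0.03 and 0.13, slightly more than the SD. If the deposited ratios were taken as not turned between orientations, the signs of replicates 2 and 4 would flip. Naip5 would then have a mean of -0.36 and Nod2 -0.17, with neither below 0 on all arrays, and 6 of 9 genes would have a negative mean. Of 171 spots without a listed gene and with a ratio of at least 0.6 in size on every array, 163 alternated with the dye and 0 kept 1 sign. What these spots are is not given. Controls added by dye would alternate in turned ratios, and a line difference would alternate in ratios not turned, so these spots cannot decide. Over all genes 21.3% alternated with the dye, while 4.65% were below 0 and 4.37% above 0 on all arrays. At an unadjusted p under 0.05 limma had 694 genes as deposited and 1714 with flipped signs. At the adjusted threshold it had 0 in both. Turned ratios are an assumption here.

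**Figure D3:**
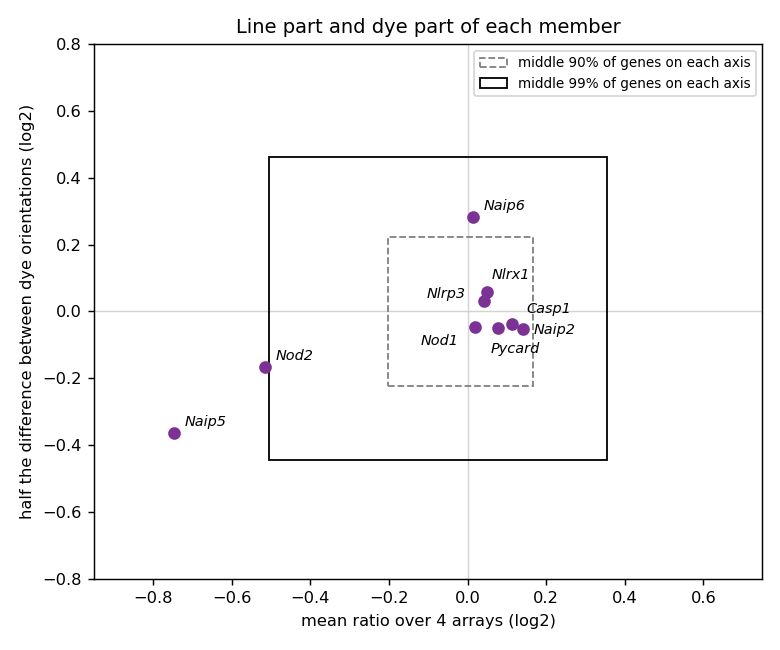
Mean log2 ratio over 4 arrays (horizontal) against the dye part (vertical), the average of replicates 1 and 3 minus that of replicates 2 and 4, divided by 2, for 9 genes. The dashed and solid boxes enclose the middle 90% and 99% of all genes on each axis. Naip5 and Nod2 lie left of the solid box on the horizontal axis, Naip5 and Naip6 lie outside the dashed box on the vertical axis, and the other 6 lie within the dashed box.

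The size of the Naip5 and Nod2 ratios was set against all genes as a description. By mean ratio Naip5 ranked 29 and Nod2 86 of 19088 from the lowest. Their SDs over arrays ranked differently: 86.7% of the genes with a never dim spot had an SD no larger than that of Naip5, and 43.5% one no larger than that of Nod2. Nod2 was therefore the steadier of the pair. No gene of the group had enough spots to measure the error of a spot. In 51 other genes with at least 10 spots, none of them dim, the SD between the spots of a gene on an array had a median of 0.11. That value need not hold for the single spots of Naip5 and Nod2, whose error is not known.

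The genes most like Naip5 and Nod2 over the 4 arrays were sought by the distance between their 4 log2 ratios, among 9773 genes with a never dim spot. Nearest to Naip5 was Anxa13, an annexin that binds membranes, at a distance of 0.50. Celsr1, a cadherin of planar cell polarity, and H2-M10.1, a nonclassical class I gene, followed, each at 0.65. Nearest to Nod2 was Arhgap25, a GTPase-activating protein for Rac, at 0.19, with -0.55, -0.39, -0.77 and -0.17 on replicates 1 to 4. Slc23a3 followed at 0.23 and Anxa13 at 0.31. Anxa13 stood on both lists with -0.88, -0.32, -0.74 and -0.37.

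The nearest measured genes beside the NAIP cluster and Nod2, by their order in RefSeq, gave ratios of either sign. Before the NAIP cluster, Serf1 had -0.40, -0.60, -0.81 and 0.05 on a never dim spot, a mean of -0.44 ± 0.37, and Smn1 had 0.05 ± 0.15. After it, the tight junction genes Ocln and Marveld2 had -0.05 ± 0.21 and 0.07 ± 0.14. Beside Nod2, Nkd1 had -0.03 ± 0.13, Snx20 -0.22 ± 0.46, the deubiquitinase gene Cyld -0.12 ± 0.33 and Sall1 -0.05 ± 0.16. None of these 8 genes lay below 0 on all 4 arrays, a pattern of 4.65% of all genes, so nothing is read from that count. The spots of Marveld2, Nkd1 and Sall1 were dim on 4 arrays and those of Ocln on at least 3.

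Around these genes, other NOD-like receptors were mostly dim. Of 25 listed, 16 had a spot and 3 a spot that was never dim. Of the 16, 14 had a negative mean, beside 50.5% of all genes, and 0 passed the adjusted threshold. On the negative side 2 and on the positive side 0 had an unadjusted p under 0.05, beside 2.05% and 1.59% of all genes. The median of their means was -0.03, and that of all genes -0.0010. The 3 genes with a never dim spot were Nlrc3 at -0.42, Nlrc4 at -0.26 and Nlrp2 at -0.01, so their median is the value of Nlrc4. Nlrc4, the partner that NAIP proteins recruit, had -0.49, -0.10, -0.26 and -0.19, negative on each array with a mean of -0.26 ± 0.17. It rested on a single spot. Nlrc5, the activator of class I genes, followed the dye with -0.32, 0.42, -0.33 and 0.17. Nlrp1b had no listed spot.

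Downstream of NOD1 and NOD2, 11 of 19 measured genes had a negative mean, beside 50.5% of all genes. Of the 19, 0 passed the adjusted threshold or an unadjusted p of 0.05. The median was -0.04. Xiap, a ubiquitin ligase of the pathway, had 0.04 ± 0.26, and the related ligases Birc2 and Birc3 had -0.11 ± 0.12 and -0.05 ± 0.08. Erbin, a NOD2-binding protein, had the smallest p of the list with -0.15 ± 0.10. Ripk2 and Card9 had no listed spot. Among 5 measured genes that share the BIR domain with the NAIP genes, 3 had a negative mean, beside 50.5% of all genes. Of the 5, 0 passed either threshold, and Birc5, the mitotic survivin, had the smallest p with 0.29 ± 0.43.

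Genes that bear on peptidoglycan fragments gave 8 of 11 negative means, beside 50.5% of all genes, and 0 past the adjusted threshold. On the negative side 1 and on the positive side 0 had an unadjusted p under 0.05, beside 2.05% and 1.59% of all genes. The median was -0.04, or 0.0045 without replicate 2. The endosomal peptide carriers Slc15a3 and Slc15a4 had -0.11 ± 0.44 and 0.07 ± 0.08. Lyz2, the lysozyme that digests peptidoglycan, had -0.22, -0.61, -0.23 and -0.23. Its spots disagreed, with a mean of -0.69 for the never dim spot and 0.04 for the spot dim on all 4 arrays.

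Of 30 other inflammasome genes, 17 had a negative mean, beside 50.5% of all genes, and 0 passed the adjusted threshold. On the negative side 3 and on the positive side 0 had an unadjusted p under 0.05, beside 2.05% and 1.59% of all genes. The median was -0.02, and 4 were below 0 on every array, beside 4.65% of all genes. They were the receptor Il1r1, Casp8, Pstpip1 and Serpinb1a. Pstpip1, which binds pyrin, had the smallest p, with -0.32, -0.41, -0.26 and -0.45 and a mean of -0.36 ± 0.09. Serpinb1a, an inhibitor of inflammatory proteases named after its values were seen, had -1.18, -2.13, -0.97 and -0.04. Casp4, the mouse receptor for cytosolic lipopolysaccharide, had -2.18, 0.36, -0.65 and 0.09, so that its sign followed the dye. Il18 had -0.64, 0.90, -0.29 and -0.34 over 10 spots. The spots of Il1b and Gsdmd, the cytokine and the pore protein at the end of the pathway, were dim on all 4 arrays, with means of 0.01 ± 0.05 and 0.02 ± 0.12. Nek7, a cofactor of NLRP3, had 0.04 ± 0.15, Txnip had 0.19 ± 0.43, and the DNA sensor Aim2 had 0.06 ± 0.29.

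**Figure D4:**
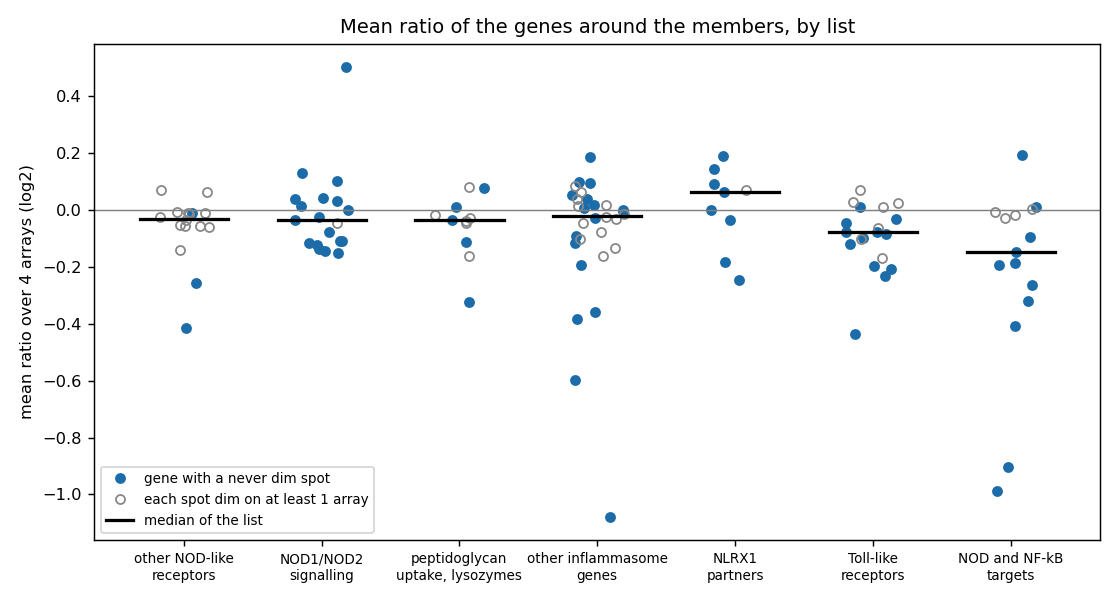
Mean log2 ratio over 4 arrays (vertical) of each measured gene in 7 lists of related genes, with the median of each list as a bar. Filled points are genes with a never dim spot and open points the others. The medians lie between -0.15 and 0.06, and the points below -0.9 are Serpinb1a, Il6 and Ccl5.

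For NLRX1, 3 of 9 partners had a negative mean, beside 50.5% of all genes, and 0 passed the adjusted threshold. On the negative side 1 and on the positive side 0 had an unadjusted p under 0.05, beside 2.05% and 1.59% of all genes. The median was 0.06. The median fell below 0 without replicate 3 (-0.02) or replicate 4 (-0.01). The antiviral adaptor Mavs had 0.59, -0.06, 0.32 and -0.10, which followed the dye, and the mitochondrial elongation factor Tufm had 0.14 ± 0.15. Sting1, the adaptor of DNA sensing, had the smallest p, with -0.26, -0.32, -0.32 and -0.08. Of 19 Toll-like receptor genes 14 had a negative mean, beside 50.5% of all genes, and 0 passed the adjusted threshold. On the negative side 2 and on the positive side 0 had an unadjusted p under 0.05, beside 2.05% and 1.59% of all genes. The median was -0.08. Tlr5, the surface receptor for flagellin, had 0.04, -0.65, 0.29 and 0.19, and Tlr4 had -0.08 ± 0.18. Tlr2 had the smallest p, with -0.20 ± 0.19 over 10 never dim spots. Ly96, the partner of TLR4 that binds lipopolysaccharide, was the other gene and is named after its values were seen, with -1.08, -0.10, -0.35 and -0.20.

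Genes that NOD and NF-kappaB signalling induces had 12 of 15 negative means, beside 50.5% of all genes, and 0 past the adjusted threshold. On the negative side 2 and on the positive side 0 had an unadjusted p under 0.05, beside 2.05% and 1.59% of all genes. The median was -0.15, and it was -0.08 without replicate 1, -0.09 without replicate 2 and -0.26 without replicate 4. The chemokine Ccl5 had -1.42, -0.99, -0.30 and -0.90, negative on both of its spots. Interleukin-6, named after its values were seen, had -2.50, -1.62, -1.07 and 1.24 as Il6, so that replicate 4 lay opposite to the others. The list mean was -0.38, -0.25, -0.25 and -0.01 on replicates 1 to 4.

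Marker lists and interferon-stimulated genes are set beside Naip5 and Nod2 because these genes are known from leukocytes and from interferon responses. The 33 interferon-stimulated genes averaged 1.50, -0.70, -1.73 and 0.08 on replicates 1 to 4. On the same arrays Nod2 had -0.69, -0.48, -0.68 and -0.22, and Naip5 had -1.30, -0.22, -0.92 and -0.55. Both were chosen for low ratios, so nothing is read from this comparison. The interferon-stimulated gene of smallest p was Ifit2, at -0.28 ± 0.36. Of the 15 leukocyte markers, 10 had a negative mean and 2 were below 0 on all arrays, beside 50.5% and 4.65% of all genes. Their list mean lay between -0.07 and -0.03 on the 4 arrays. Lyz2 alone had an unadjusted p under 0.05, beside 3.64% of all genes. The 16 fibroblast markers averaged 0.30, -0.24, -0.04 and 0.14, with 8 negative means, beside 50.5% of all genes. On the negative side 1 marker and on the positive side 1 had an unadjusted p under 0.05, beside 2.05% and 1.59% of all genes. Pdgfrb had -0.47 ± 0.27, and Col1a1, named after its values were seen, had 2.51, -0.02, 0.84 and 1.12. Epithelial and endothelial markers averaged between -0.10 and 0.08 on every array, with Krt8 at -0.17 ± 0.28 and Vwf at -0.21 ± 0.24. The part of any of these in the ratios of Naip5 and Nod2 was not tested.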

How the data were processed

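The values are the authors' deposited log2 ratios, 1 per spot and array for 45220 spots on 4 arrays, with no missing value. Base 2 was assumed, since no source states it. Per the submitters' processing notes limma was used, with no version. How background, normalization and filters were handled is not given in the sources used here. The array medians lay between -0.0033 and 0.0051, so the arrays were centred before deposit. Precision is limited by the number of arrays, and signal over background is not known.

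Of the spots, 33653 were listed with 1 gene, 56 with several and 11511 with none. Current symbols were taken by gene ID from RefSeq for GRCm38.p6, which matched 18966 of 19088 genes. Spots of a gene were averaged. On each array 53.7% to 56.0% of spots were dim. The line difference was fitted with lmFit and eBayes in limma 3.58.1 (R 4.3.3) with a dye term, with Benjamini-Hochberg adjustment across the whole table, and was tested on simulated data. The p-values set the mean ratio of a gene against the spread between these pairs of cultures, moderated over all genes. They say nothing of cultures or lines that were not measured. The genes and lists were chosen with earlier results of these data known. All 10 genes, 23 preset genes of the lists, the gene of smallest p in each of 13 lists, the 3 nearest genes by pattern and the 2 measured neighbours on either side are named.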

Additional observations from a re-analysis of the deposited data

Results flagged for a closer look

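Of 51 named genes, 6 had 1 array far from the other 3 by Dixon's criterion for 4 samples, and 0 of 13 list means did. Chance marks about 1 in 20 groups. Pycard had 0.214 on replicate 4, against 0.03 to 0.04 on the others. Aim2 had 0.5 on replicate 3 on a spot that was dim on 3 arrays. Lyz2 had -0.613 and Erbin -0.288, both on replicate 2. Smn1 had -0.171 on replicate 3 and Sall1 had -0.287 on replicate 4.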

How the results depend on the processing

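The count of genes past the adjusted threshold was 0 with all 4 arrays and in each of 11 alternatives, with between 426 and 1714 at an unadjusted p under 0.05. The 11 were no dye term, flipped signs of replicates 2 and 4, spots dim on no array, the median over spots, scaled arrays, a robust variance prior, spots tested singly, and each replicate left out. Flipping the signs of replicates 2 and 4 gave 6 of 9 genes with a negative mean in place of 2, 0 in place of 2 below 0 on all arrays, and a mean of -0.17 for Nod2. With flipped signs Ccl5, Pstpip1, Lyz2 and Tlr2 had positive means of 0.04, 0.07, 0.10 and 0.16. Leaving out single replicates gave 2 to 6 of 9 genes with a negative mean, and 2 below 0 on all remaining arrays each time. Neither count could fall under 2, because Naip5 and Nod2, chosen for low ratios, were below 0 on all 4 arrays. Of 481 other values, 451 moved by no more than their SD over arrays. Leaving out 1 of 4 arrays cannot move the mean of a gene further than that SD. Those cases were fixed in advance, and the count of 451 is no measure of stability. Of the 30 values that moved, 22 did so when the signs of replicates 2 and 4 were flipped. Each array holds 1 culture of either line, so the ratio is the pair and the fit on ratios is already a paired comparison.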
